A study of Arabidopsis thaliana with 4 samples.

Results

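CML37, CML38, CML41, STZ, AT1G19020 and GRX480 are 6 Arabidopsis genes of calcium sensing and rapid stress response, and their transcripts were measured in leaves of wild-type and KO-nudx19 plants on 4 Affymetrix ATH1 arrays. Each was found by its symbol or locus among the probe sets that name 1 gene in the platform annotation, which gave 1 probe set per gene, 6 of 13513 such probe sets and of 22810 in all. They were selected on signals of these same arrays, with their differences between genotypes and between replicate numbers known, so their own values are given below as a description. Where limma's calls over all probe sets include some of them, the calls are stated and nothing is read from them. Wild type (genotype wildtype) was cultivar Col-0. KO-nudx19 plants, of the same cultivar, lack nudix hydrolase 19 (NUDX19), an enzyme that hydrolyses NADPH, and the nature of the mutation is not given in the labels. All plants shared 1 week on MS medium with 3% sucrose and 2 weeks on soil, in days of 16 h of light (25 °C, 100 µmol per square metre and second) and 8 h of darkness (22 °C), and rosette leaves were taken at 3 weeks. Each genotype had 2 arrays, numbered 1 and 2 in the labels, which do not say whether the numbers stand for separately grown plants. Every spread below may therefore be technical, and the number of arrays limits the precision.

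Leaf cells raise cytosolic calcium within moments of wounding, touch, cold or contact with a pathogen. Calmodulin-like proteins bind the ion through EF-hand loops and pass the signal to other proteins, and many of their own genes are switched on by the same stimuli. STZ (also named ZAT10) is a C2H2 zinc finger repressor induced by salt, cold, drought, strong light and wounding. GRX480 (also named ROXY19) is a CC-type glutaredoxin that binds TGA transcription factors in the cross-talk of salicylic acid and jasmonate signalling. AT1G19020 encodes a small protein whose function is not established, and its transcript is known to rise under many kinds of oxidative stress.

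Of the 6 genes, 5 gave their lowest signal on wild type replicate 1 with all 4 signals above the floor described next, and 4 of these 5 gave their highest on KO-nudx19 replicate 2. In both genotypes those 5 were higher on replicate 2 than on replicate 1, by 1.26-fold (AT1G19020 in KO-nudx19) to 5.12-fold (CML41 in wild type). The genotypes overlapped for each of the 5. Of the 13756 probe sets tested as described next, 22.7% were lowest on wild type replicate 1. In 10.3% that array was lowest and KO-nudx19 replicate 2 highest. Both replicate 2 arrays lay above both replicate 1 arrays for the 5 genes and for 23.7% of these probe sets. Both KO-nudx19 arrays lay above both wild-type arrays in 10.5% and below them in 11.8%. The genes were picked with these differences known, so nothing is read from the counts. CML37 gave no signal above the floor on any array.

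Signals are the authors' linear intensities. A pair of levels was used to say how close to background a signal lies, since detection calls were not used here. Signals under 8.92, the 20th percentile of all signals on the 4 arrays, were set to that value (the floor), and a signal under 37.1, the 40th percentile, was called near background. Probe sets with a mean signal of at least 37.1 were tested with limma, 13756 in all, with Benjamini-Hochberg adjustment over all of them and an adjusted p of 0.05 as the threshold. STZ, AT1G19020, CML41 and GRX480 reached that mean, and CML38 and CML37 did not. CML41 and GRX480 reached it although their signal on wild type replicate 1 lay under it, so counts over the 4 that passed support nothing on their own. Differences are on the log2 scale of the floored signals.

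**Figure D1:**
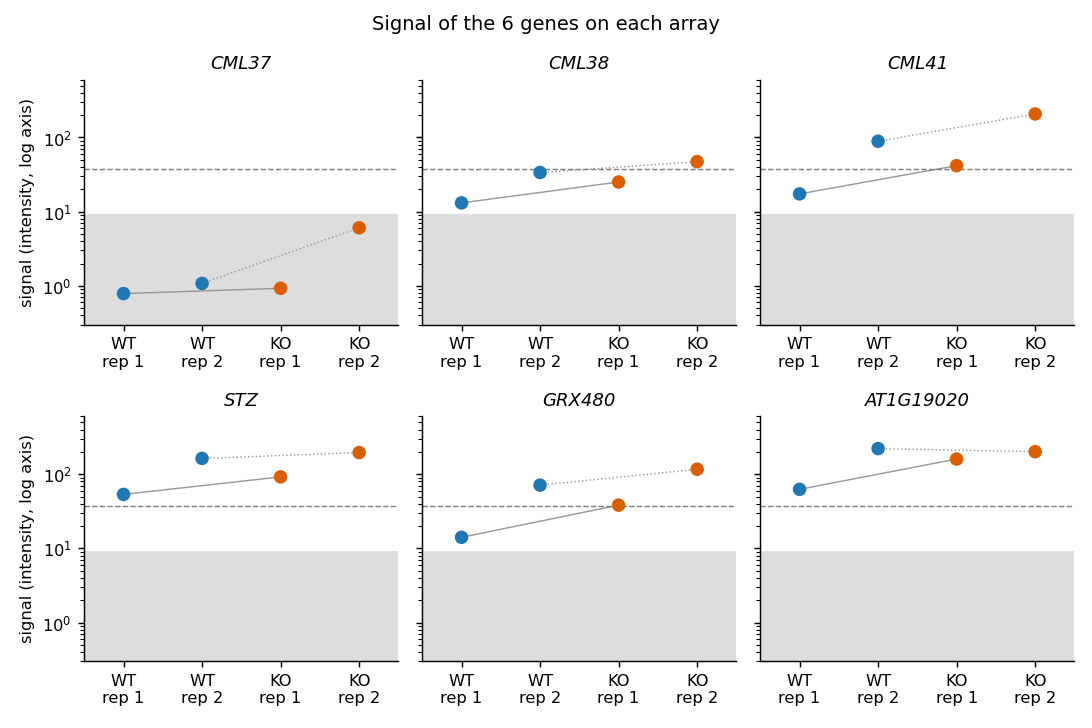
Signal of each gene on the 4 arrays (log axis), wild type (WT) in blue and KO-nudx19 (KO) in orange. Grey lines join same-numbered arrays (solid for 1, dotted for 2), the grey band marks signals under the floor of 8.92 and the dashed line the level of 37.1. CML37 lies in the band on every array, and the lowest point of each other gene is wild type replicate 1.

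CML41, a calmodulin-like protein associated with plasmodesmata and callose deposition in the immune response, had signals of 17.4 and 89.0 on wild type replicates 1 and 2 and of 41.7 and 208 on KO-nudx19 replicates 1 and 2. Wild type replicate 1 lay near background and the other 3 arrays above it. The mean signal was 53.2 ± 50.7 for wild type and 125 ± 117 for KO-nudx19 (SD, n = 2 each), and the genotypes overlapped, because wild type replicate 2 was higher than KO-nudx19 replicate 1. Over the 4 arrays the highest signal was 12.0-fold the lowest, the widest range among the 5 genes with signals above the floor.

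CML41 was also the gene whose differences were most even. Replicate 2 exceeded replicate 1 by 5.12-fold in wild type and by 4.97-fold in KO-nudx19. KO-nudx19 exceeded wild type by 2.40-fold on the arrays numbered 1 and by 2.33-fold on those numbered 2. The log2 difference between the genotypes differed by only 0.043 between the numbers, the smallest such change among the 5 genes. As a difference of means it was 1.24 (SE 1.65) between the genotypes and 2.34 (SE 0.88) between the numbers. With the floor raised to the 40th percentile these were 0.70 and 1.79. Here and for the genes below, the SE between the genotypes comes from arrays of unlike number, so it also holds the number difference.

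CML38, a calmodulin-like protein found in RNA stress granules of oxygen-starved cells, had signals of 13.1 and 33.7 for wild type and 25.1 and 47.2 for KO-nudx19. Only KO-nudx19 replicate 2 was above the near-background level, and both wild-type arrays and KO-nudx19 replicate 1 were under it. The mean was 23.4 ± 14.6 for wild type and 36.2 ± 15.6 for KO-nudx19 (SD, n = 2 each). Replicate 2 was 2.57-fold replicate 1 in wild type and 1.88-fold in KO-nudx19, and KO-nudx19 was 1.91-fold wild type on the arrays numbered 1 and 1.40-fold on those numbered 2. Its log2 differences of 0.71 (SE 0.82) between the genotypes and 1.14 (SE 0.53) between the numbers both shrank to 0.17 with the higher floor, which leaves 1 array with a value of its own.

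CML37, a calmodulin-like protein that takes part in jasmonate-dependent defence against insects and in drought responses, had signals of 0.788 and 1.08 for wild type and 0.929 and 6.07 for KO-nudx19. All 4 lay under the floor, so no fold is given. Signals on these arrays of 3 probe sets for a Bacillus trp transcript, which a leaf does not make, ranged from 0.218 to 9.59 and so enclosed those of CML37. KO-nudx19 replicate 2 gave the highest of the 4 signals, as it did for CML41 and CML38, at a level where signals have no order.

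STZ, the zinc finger repressor, was above the near-background level on every array. It had 53.4 and 163 for wild type and 91.9 and 196 for KO-nudx19, with means of 108 ± 77.5 and 144 ± 73.3 (SD, n = 2 each). Both replicate 2 arrays were above both replicate 1 arrays, and the genotypes overlapped. Replicate 2 was 3.05-fold replicate 1 in wild type and 2.13-fold in KO-nudx19. KO-nudx19 was 1.72-fold wild type on the arrays numbered 1 and 1.20-fold on those numbered 2. The log2 difference was 0.52 (SE 0.97) between the genotypes and 1.35 (SE 0.41) between the numbers. That between the genotypes was −0.28 without wild type replicate 1 and −0.021 without KO-nudx19 replicate 2.

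GRX480, the glutaredoxin that binds TGA factors, had 14.1 and 71.2 for wild type and 38.2 and 117 for KO-nudx19. Wild type replicate 1 lay near background, KO-nudx19 replicate 1 just above the limit of 37.1, and both replicate 2 arrays clearly above it. The means were 42.7 ± 40.4 and 77.4 ± 55.4 (SD, n = 2 each). Replicate 2 was 5.05-fold replicate 1 in wild type and 3.05-fold in KO-nudx19, and KO-nudx19 was 2.71-fold wild type on the arrays numbered 1 and 1.64-fold on those numbered 2. Its log2 difference of 1.07 (SE 1.42) between the genotypes became 0.38 with the floor at the 40th percentile and −0.094 without wild type replicate 1. Between the numbers it was 1.97 (SE 0.80), and 1.27 with the higher floor.

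AT1G19020, the oxidative stress gene, departed from the order of the others. It had 62.5 and 221 for wild type and 160 and 201 for KO-nudx19, above the near-background level on every array, with means of 142 ± 112 and 180.5 ± 29.0 (SD, n = 2 each). Wild type replicate 1 stood apart from the other 3 arrays, which lay within 160 to 221. KO-nudx19 was 2.56-fold wild type on the arrays numbered 1 and 0.909-fold on those numbered 2. Replicate 2 was 3.54-fold replicate 1 in wild type and 1.26-fold in KO-nudx19. The log2 difference was 0.61 (SE 0.93) between the genotypes, −0.30 without wild type replicate 1, and 1.08 (SE 0.68) between the numbers. Within KO-nudx19 alone the number difference was 0.33.

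**Figure D2:**
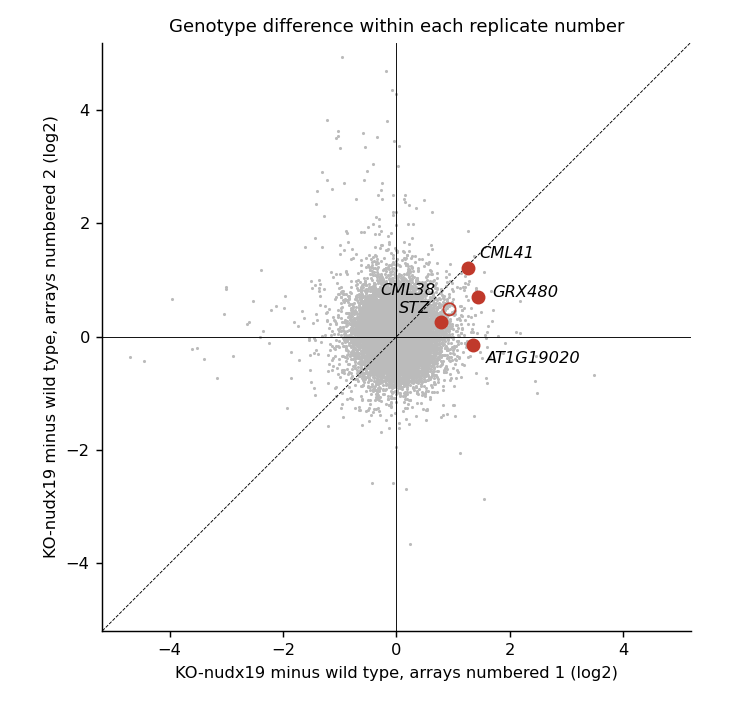
Log2 difference KO-nudx19 minus wild type on the arrays numbered 1 (horizontal) and numbered 2 (vertical), with the 13756 tested probe sets in grey, the 4 tested genes as filled red points and the untested CML38 as an open one. CML41 lies on the dashed line of equal differences (1.26 and 1.22), and AT1G19020 lies under 0 on the vertical axis (1.36 and −0.14).

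The genotypes were compared to find transcripts that respond to the loss of NUDX19. No probe set could be assigned to NUDX19, so the targeted gene gave no check of the labels. In limma, 0 of 13756 probe sets passed between the genotypes (0%), among them 0 of the 4 tested genes, and 89 of the 13756 had an unadjusted p under 0.05. This fit held no term for the replicate number, so its residual spread includes the number difference. The fit between the numbers below did hold genotype, so the counts of the fits cannot be compared directly. Fits between the genotypes with the number as a block are given in the closing section on processing. With 2 arrays against 2, an exact permutation test of a single gene cannot give a two-sided p below 0.333. None of the 4 lay apart between the genotypes, against 10.5% of tested probe sets with both KO-nudx19 arrays above both wild-type arrays and 11.8% with both below.

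Taken within each replicate number, CML41, STZ and GRX480 of the 4 tested genes were higher in KO-nudx19 in both, as was the untested CML38. Of all tested probe sets 24.3% were. A difference of at least 2-fold in both numbers was seen for CML41 alone of the 4, and for 0.0509% of tested probe sets (7 of 13756). On the arrays numbered 1 alone, CML41, AT1G19020 and GRX480 reached 2-fold, against 0.96% of tested probe sets. The log2 difference of the 4 ranged from 0.78 to 1.44 on the arrays numbered 1 and from −0.14 to 1.22 on those numbered 2, with medians of 1.31 and 0.49 beside −0.012 and 0.0082 over all tested probe sets. The genes were picked with these differences known, so nothing is read from those counts.

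Between the replicate numbers both arrays numbered 2 lay above both numbered 1 for the same 4 genes, against 23.7% of tested probe sets, with log2 differences of 1.08 to 2.34. Limma, with genotype as a covariate, called 1540 of 13756 probe sets between the numbers, 678 higher (4.93%) and 862 lower (6.27%) on the arrays numbered 2. All 4 tested genes fell among the higher ones, again a contrast known when they were picked. In wild type and KO-nudx19 alike, CML41, STZ and GRX480 were at least 2-fold higher on replicate 2, against 2.09% of tested probe sets. The median number difference of the 4 was 2.08 for wild type and 1.35 for KO-nudx19, beside −0.046 and −0.051 over all tested probe sets. For each of the 5 genes above the floor it was larger in wild type than in KO-nudx19, by a margin that was narrow for CML41 (2.36 and 2.31) and wide for AT1G19020 (1.82 and 0.33).

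**Figure D3:**
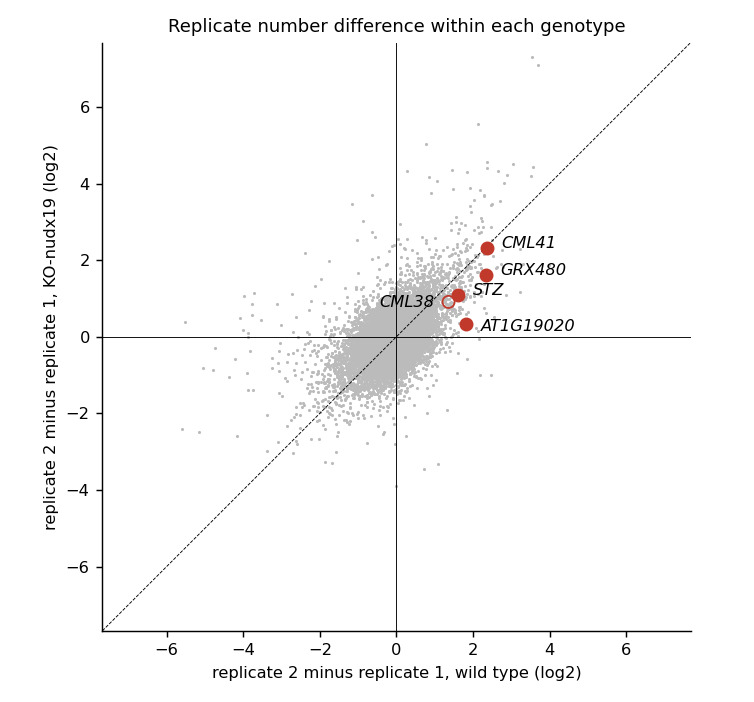
Log2 difference replicate 2 minus replicate 1 in wild type (horizontal) and in KO-nudx19 (vertical), with the 13756 tested probe sets in grey, the 4 tested genes filled and the untested CML38 open. All 5 lie to the right of 0 and above 0, on or under the dashed line of equal differences.

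The wild type replicate 1 array enters both the genotype difference of the arrays numbered 1 and the number difference of wild type, so these share that array. It was the lowest array for all 4 tested genes and for CML38, against 22.7% of tested probe sets. It was the lowest with KO-nudx19 replicate 2 the highest for CML41, STZ, GRX480 and CML38, against 10.3% of tested probe sets. Genes picked with both differences known tend to have this order, so nothing is read from these counts either. Without wild type replicate 1 the genotype difference fell to 0.064 for CML41 and 0.030 for CML38. Without KO-nudx19 replicate 2 the genotype difference was 0.086 for CML41, 0.26 for CML38, 0.27 for GRX480 and 0.44 for AT1G19020. Leaving out 1 array leaves the numbers unequal between the genotypes, so these values also hold part of the number difference.

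Several array-wide measures differed between the arrays, some by replicate number and some by genotype. Their part in the differences of the 5 genes above the floor was not tested. Poly(A) controls, spiked into the RNA, averaged (geometric mean) 116 for wild type and 98.2 for KO-nudx19 in number 1, but 19.9 and 21.0 in number 2. The ratio of actin signals at the 3′ and 5′ ends, which rises as RNA breaks down, stood at 2.30 and 2.92 in number 1 and at 4.27 and 5.17 in number 2. The same ratio for GAPDH changed less, from 1.01 and 0.986 in number 1 to 1.15 and 1.38 in number 2. Hybridisation controls averaged 620 and 411 on wild type replicates 1 and 2, and 1054 and 1140 on KO-nudx19 replicates 1 and 2. The leaf identity of the samples was seen in the nuclear photosynthesis genes used as mesophyll markers, 9 of 40 of which had a named probe set. Their summed signal was 69045 and 89460 for wild type and 91573 and 114461 for KO-nudx19, lowest and highest on the same arrays as CML41, STZ, GRX480 and CML38. Their brightest were RCA, from 11113 to 19541, and LHCB4.1, from 11592 to 16566, and none of the 9 lay near background. For 5 of the 9 both KO-nudx19 arrays lay above both wild-type arrays, against 10.5% of all tested probe sets. Limma called 2 of the 9 as higher on the arrays numbered 2, against 4.93% of all tested probe sets, and 0 between the genotypes. Those called were PSAE-1 and LHCB4.3. Wild type replicate 1 was the lowest array for 8 of the 9, against 22.7% of all tested probe sets. The exception was LHCB4.3, with 307 and 505 for wild type and 164 and 472 for KO-nudx19, lower in KO-nudx19 within each number. With quantile normalization, which makes the distribution of signals equal on all arrays, the genotype differences were 1.18 for CML41, 0.98 for GRX480, 0.52 for STZ, 0.61 for AT1G19020 and 0.64 for CML38.

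Markers of other leaf cells did not share that order. The 3 of 6 guard cell markers with a named probe set, of which the locus AT1G22690 and FMA were brightest, summed to 888 and 785 for wild type and 1148 and 524 for KO-nudx19. The only named vascular marker of 9, the sucrose transporter gene SWEET11, had 2204 and 1404 for wild type and 2147 and 1408 for KO-nudx19, and limma called it lower on the arrays numbered 2 (adjusted p = 0.0496), as it did 6.27% of all tested probe sets. The trichome gene TRY, the only named epidermal marker of 6, had 62.3 and 92.6 against 48.7 and 84.9. Root markers and flower, pollen and seed markers lacked named probe sets and were not analysed here. In whole leaves, fewer cells of a type and less RNA per cell cannot be told apart.

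The rest of the calcium sensor family was covered in part. Of 23 calmodulin and calmodulin-like loci listed, 11 had a named probe set, 8 of them beside the 3 described, and 3 of these 8 had a mean high enough to be tested. Of these 3, 0 passed between the genotypes and 1 passed as higher on the arrays numbered 2, against 4.93% of all tested probe sets. That was AT3G47480, a locus listed with the family and without a symbol in RefSeq, at 24.9 and 80.6 for wild type and 50.2 and 118 for KO-nudx19 (log2 number difference 1.46, SE 0.32, limma adjusted p = 0.00407). Its arrays stood in the same order as those of CML41, with wild type replicate 1 lowest and KO-nudx19 replicate 2 highest.

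CML42, a calmodulin-like gene of trichome branching and insect defence, had 156 and 178 for wild type and 158 and 198 for KO-nudx19, and its log2 number difference of 0.26 (SE 0.24) did not pass. CML30 had 177 and 155 against 141 and 97.0. Its genotypes did not overlap, with a log2 difference of −0.50 (SE 0.30) that did not pass. Both KO-nudx19 arrays lay below both wild-type arrays in 11.8% of all tested probe sets. Among the untested ones, AT1G21550 had 13.0 and 49.7 for wild type and 12.6 and 66.4 for KO-nudx19, and CML23, a relative of the touch gene TCH2, had 22.8 and 39.6 against 18.4 and 56.8. Both were near background on the arrays numbered 1 and above it on those numbered 2. AT1G76640, which lies next to CML38 on the chromosome and shares the RefSeq synonym CML39 with CML37, was under the floor on all 4 arrays, as CML37 was, and CML43 and AT3G01830 were near background or lower on every array.

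**Figure D4:**
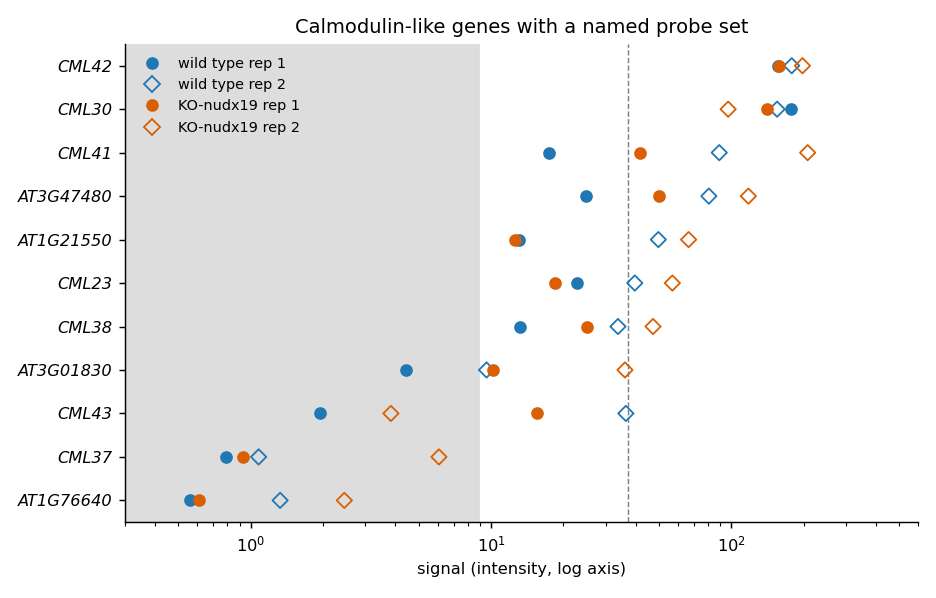
Signals (log axis) of the 11 calmodulin-like genes with a named probe set on each array, wild type in blue and KO-nudx19 in orange, filled circles for replicate 1 and open diamonds for replicate 2. The grey band marks signals under the floor of 8.92 and the dashed line the level of 37.1. Genes are ordered by mean signal for display only, since probe sets differ in how brightly they report a transcript. CML42 and CML30 are bright with close points, while CML41 and AT3G47480 spread from under the line to well above it.

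Other parts of the calcium pathway were covered unevenly. Calcium-dependent and calcineurin B-like protein kinases and sensors (59 loci) had no named probe set, and of 60 channels and pumps listed 7 did, all glutamate receptor-like channels. Of the 5 tested, 0 passed in either comparison, with a median log2 difference of 0.12 between the genotypes and 0.22 between the numbers, beside −0.00060 and −0.051 over all tested probe sets. GLR3.3, a channel of wound-induced long-distance calcium waves, was the only one whose genotypes lay apart, with 139 and 103 for wild type and 155 and 141 for KO-nudx19 (log2 difference 0.30, SE 0.28). The nearest values of its genotypes were only 0.023 apart on the log2 scale. Of all tested probe sets, 10.5% had both KO-nudx19 arrays above both wild-type arrays and 11.8% had both below. Of 6 loci of CAMTA factors, which bind calmodulin and regulate early stress genes, 3 were tested and 0 passed in either comparison. The locus AT1G67310 had 159 and 127 for wild type and 256 and 187 for KO-nudx19, a log2 genotype difference of 0.62 (SE 0.29), and AT4G16150 had 80.3 and 50.1 against 45.5 and 49.5, a difference of −0.42 (SE 0.38). The genotypes of both lay apart, with nearest values 0.23 apart on the log2 scale for AT1G67310 and only 0.016 for AT4G16150. The number difference of AT1G67310 was −0.39, opposite in sign to those of the 5 genes above the floor.

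Few relatives of STZ could be found by name among the probe sets. Of 11 loci of C2H2 zinc fingers of its type, 3 had a named probe set, 1 was tested and 0 passed. AT2G28200 had 63.7 and 46.9 for wild type and 108 and 60.9 for KO-nudx19, lower on replicate 2 in both genotypes, the reverse of STZ. AT3G53600 was under the floor and AT3G60580 near background on all arrays.

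Of 9 glutaredoxin loci beside GRX480, 4 had a named probe set and 3 were tested, with 0 passing between the genotypes and 1 higher on the arrays numbered 2, against 4.93% of all tested probe sets. That was GRXC2, a classic glutaredoxin, with 1767 and 2984 for wild type and 2310 and 3917 for KO-nudx19 (log2 number difference 0.76, SE 0.19, limma adjusted p = 0.0128). GRXC1 had 126 and 166 against 234 and 202, and ROXY1, a CC-type glutaredoxin known from petal development, had 30.8 and 33.1 against 47.0 and 38.6. Their genotypes lay apart, with log2 differences of 0.59 (SE 0.27) and 0.42 (SE 0.39) that did not pass. Both KO-nudx19 arrays lay above both wild-type arrays in 10.5% of all tested probe sets. The TGA factors that GRX480 binds, NPR1 and the salicylic acid response genes listed with them had no named probe set.

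Of 47 loci of rapid response to wounding, touch, cold and elicitors, 6 had a named probe set, 3 were tested, 0 passed between the genotypes and 1 passed as higher on the arrays numbered 2, against 4.93% of all tested probe sets. WRKY53, a transcription factor of leaf senescence and defence, had 50.8 and 172 for wild type and 83.8 and 270 for KO-nudx19 (log2 number difference 1.73, SE 0.25, limma adjusted p = 9.34e-05). Its arrays stood in the order of CML41. WRKY22 and PUB24 were also higher on both arrays numbered 2, with log2 number differences of 0.44 and 0.57 that did not pass. The 3 too dim to be tested had number differences under 0, of −0.23 for PUB22, −0.32 for PUB23 and −0.017 for WRKY6. Of 12 loci of the general oxidative stress response, to which AT1G19020 belongs, 2 other genes were tested and 0 passed in either comparison. AT1G05340 had 46.7 and 77.7 for wild type and 77.4 and 101 for KO-nudx19, and AT2G21640 had 45.3 and 78.2 against 66.6 and 73.0. As for AT1G19020, wild type replicate 1 was the lowest array of both. Of 12 hypoxia genes, listed because CML38 is one, only AT3G10040 had a named probe set, which was near background on all arrays.

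The 5 genes above the floor were also compared in pattern, each centred on its own mean log2 signal, by the root mean square (RMS) of the difference over the 4 arrays. CML38 and STZ were the closest pair (0.14), followed by CML41 and GRX480 (0.26), and CML41 and AT1G19020 the farthest (0.79). Over all 7424 tested probe sets naming 1 gene, AT1G19380, AT4G36500 and LTI30 were most like STZ, with RMS differences of 0.047, 0.11 and 0.11. LTI30, a dehydrin gene of cold and drought, had 59.3 and 167 for wild type and 103 and 246 for KO-nudx19. Most like AT1G19020 were AT3G19030 (0.087), AT1G05575 (0.10) and AT5G51390 (0.13).

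CML41 and GRX480 had neighbours at larger RMS differences. For CML41 these were AT1G07050 (0.24), GRX480 itself (0.26) and the metallothionein gene MT1C (0.37), which had 361 and 1088 for wild type and 563 and 2152 for KO-nudx19. For GRX480 they were AT1G07050 (0.23), AT5G52760 (0.25) and AT1G11210 (0.26). The RMS difference is not scaled to a gene's range. On the log2 scale that range was wider for CML41 (3.58) and GRX480 (3.05) than for STZ (1.87) and AT1G19020 (1.82). With 4 arrays, such likeness describes these arrays only.

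**Figure D5:**
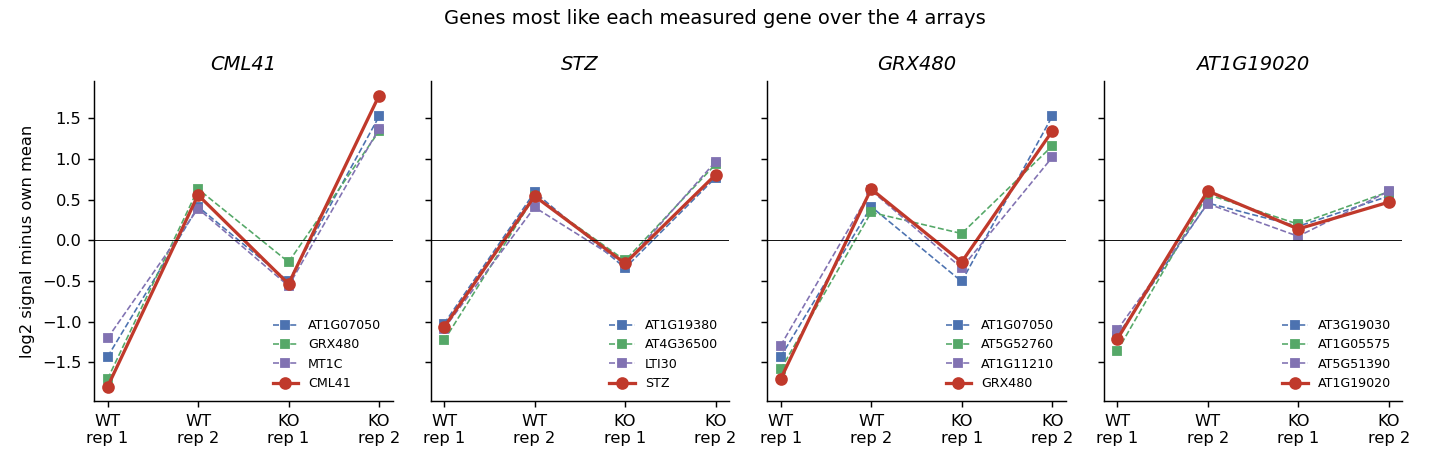
Log2 signal minus its own mean on each array for CML41, STZ, GRX480 and AT1G19020 (red circles) and the 3 named genes most like each (squares). The STZ and AT1G19020 neighbours trace them closely, with RMS differences of at most 0.13, while those of CML41 and GRX480 lie 0.23 to 0.37 away.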

How the data were processed

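RNA of 4 leaf samples was hybridised to 1 Affymetrix array each. The authors' deposited values are linear signal intensities, 1 for each probe set on each array. The array maker's program GCOS is named in the submitters' processing notes. Its version and how it summarised probes, corrected background and scaled arrays were not given in the sources used here. Trimmed mean signals were 200.02 on each array, as scaling to a common mean gives, and such scaling leaves differences in the spread of signals in place.

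Groups and replicate numbers came from the sample titles. Signals were floored at the 20th percentile (8.92) and log2 taken, 64 control probe sets and those with a mean under the 40th percentile (37.1) were left out, and limma (version 3.58.1, R 4.3.3, eBayes with a trend) compared KO-nudx19 with wild type, and replicate 2 with 1 with genotype as a covariate. SEs of the 6 genes come from their own 2 arrays per group, those of other genes from limma. For the number difference, limma's SEs have genotype taken out and those of the 6 genes do not, so the SEs cannot be compared directly. For the genotype difference, neither kind of SE has the replicate number taken out. For CML41 the SE of the number difference was 0.31 in limma and 0.88 from its own arrays. Of 22810 probe sets, 13513 named 1 gene in the platform annotation, 503 several and 8730 are unnamed here. Symbols were updated through RefSeq (TAIR10.1) for 13436. No coordinates are given, since the values name no genome build.

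The 6 genes and all lists were chosen with earlier results of these data known, the lists from general knowledge of the pathways. Every one of the 6 is described. Of each list the genes that passed and up to 3 with genotypes lying apart are named, of each marker list the brightest 2, and for each tested gene the 3 most alike. Other list genes named were chosen after their values were seen, as were the trp probe sets. The fitting code was tested on simulated data. Figures used matplotlib 3.10.9.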

Additional observations from a re-analysis of the deposited data

Results flagged for a closer look

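AT1G19020 went opposite ways in the numbered pairs. It was higher in KO-nudx19 on the arrays numbered 1 (62.5 in wild type, 160 in KO-nudx19, log2 difference 1.36) and slightly lower on those numbered 2 (221 and 201, log2 difference −0.14). The change between the pairs was −1.49 on the log2 scale. With 1 array per genotype in each pair this difference was not tested.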

How the results depend on the processing

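Between the genotypes limma called 0 probe sets in 13 of the 16 fits run, and the direction of CML41 and CML38 was the same under every alternative run. Leaving out each array in turn gave counts from 0 to 10, the 10 without wild type replicate 1, and genotype differences from −0.28 to 1.33 for STZ, −0.30 to 1.52 for AT1G19020 and −0.094 to 2.24 for GRX480. STZ also turned, to −0.021, without KO-nudx19 replicate 2. CML41 and CML38 kept their direction, but their differences fell to 0.064 and 0.030 without wild type replicate 1. Without KO-nudx19 replicate 2 they were 0.086 and 0.26. Leaving out an array makes the numbers unequal between the genotypes, by construction. The labels do not say what the replicate number stands for, and it was not taken as a pairing. Deviations from the genotype means correlated at 0.552 between same-numbered arrays. With the replicate block limma called 2 probe sets, 0 of them among the 6 genes, with 740 at an unadjusted p under 0.05. Quantile normalization with the replicate block called 94, with CML41 among them. Between the numbers limma called 1540 probe sets, 1020 with a filter at the 60th percentile, where fewer probe sets are tested, and 0 without a filter, with 2705 at an unadjusted p under 0.05; the cause was not tested. Other settings gave 1098 to 1863, and AT1G19020 was not among the calls without a trend in eBayes or with genotype left out of the fit. No such count could be had with an array left out, since no residual degrees of freedom remain. The number difference kept its sign under every alternative for the 5 genes above the floor. CML37 lay under the floor on every array and moved most when it was removed, from 0 to 1.36 between the genotypes and to 1.58 between the numbers, while the other 5 did not move. Raising the floor to the 40th percentile lowered the number difference of CML38 to 0.17, of CML41 to 1.79 and of GRX480 to 1.27.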

Other observations

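ROXY2, a CC-type glutaredoxin known with ROXY1 from anther development, was too dim to be tested and was singled out after its values were seen. It had 9.66 and 25.1 for wild type and 27.2 and 46.6 for KO-nudx19, so that its genotypes lay apart by little, with 3 of the 4 signals near background. AT3G01830, a locus listed with the calmodulin-like family, had 4.44 and 9.58 for wild type and 10.2 and 36.1 for KO-nudx19, with KO-nudx19 replicate 2 alone well above the floor.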
